A study of Vitis vinifera with 16 samples.

Results

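Leaves of Vitis vinifera cv. Garnacha Blanca sprayed with Akivi (Aki) were compared directly with leaves sprayed with fresh Bacillus UdG (BF), in 8 of the 16 RNA-seq libraries of the study. The members were all libraries of these 2 groups, 4 for Aki and 4 for BF, and every gene that reached 0.5 FPKM in at least 3 of the 8 libraries was compared. FPKM counts the sequenced fragments of a gene after correction for gene length and for the depth of each library. Akivi is a spray product under development made from the shrub Dittrichia viscosa, and was applied at 0.521 g/L. Bacillus UdG is a strain of Bacillus velezensis, and BF was a fresh culture, concentrated in its own spent medium and applied in water at 100000000 CFU/mL. Both groups were greenhouse plants grafted on rootstock 110R, sampled 24 h after spraying, and each library pooled 2 leaves from each of 5 plants. Lyophilized Bacillus UdG (BL), dried with skimmed milk, and water-sprayed leaves (NTC) had 4 libraries each, and are used here only as reference levels. The BF product held cells and culture medium together, so their contributions cannot be told apart. The experimental blocks were described as corresponding to the treatments, so the position of the plants and the treatment cannot be told apart either.

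Biocontrol sprays reach leaves as either a mixture of plant compounds or a living bacterium with its secreted products. Leaves can answer such contacts through salicylic acid signalling, in which the regulator NPR1, also called NIM1, switches on pathogenesis-related (PR) genes, through the hormones jasmonate and ethylene, and through changes in cell wall enzymes and their inhibitors. The question of the comparison was which genes stood at different levels after the botanical and the bacterial product. Gene descriptions were taken from the tables of the study, which describe 102 of the 30661 genes, all of them found in the data. The other genes are known here by their identifier only.

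The libraries held between 11078475 and 16330581 fragments in Aki and between 11255894 and 14754606 in BF, so that 3 fragments on a gene of 1 kb corresponded to between 0.184 and 0.271 FPKM. In a principal component analysis of the 8 libraries, the first component took 36.9% of the variance and placed the Aki libraries between -41.19 and -31.47 and the BF libraries between 0.18 and 87.82. The groups did not overlap on it, but BF was far more spread out, with BF_R1 at 87.82 and BF_R4 at 0.18. BF_R1 also had the lowest mean correlation with its own group, 0.948 against 0.952 to 0.965 for the other BF libraries. The study left Aki_R1 and BF_R1 out of its own analysis. Leaf marker genes were not analysed here, because they are not among the described genes.

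The sequences below are the RT-qPCR primers that the study designed for 5 genes on which the results turn, namely the pair of Akivi markers and the pair of Bacillus markers with the largest differences, and the gene APR1, which went the other way from the rest of its list. They tie each result to a site that can be amplified, and are written 5′ to 3′.
VIT_06s0004g03350 forward: gcgagcttcaagcgcaatta
VIT_06s0004g03350 reverse: aggtttgcttgctggcattg
VIT_17s0000g00200 forward: aagtgggcagctgagatacg
VIT_17s0000g00200 reverse: taggcaagtgcagcatcctc
VIT_16s0022g00860 forward: gctgcaagaaatgtggaatgc
VIT_16s0022g00860 reverse: tcgactcttgtgactttgttttcc
VIT_06s0004g07210 forward: caagtgccagacaccatcct
VIT_06s0004g07210 reverse: accagcaccgcacatacttt
VIT_00s1490g00010 forward: aagttcagggcttggtgagg
VIT_00s1490g00010 reverse: gggtctcacttctcacacgg

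Of the 19620 genes tested, 397 (2.02%) differed between Aki and BF. A gene was called when its adjusted p was 0.05 or less and its log2 fold change was at least 1.4 in size, on the scale of log2(FPKM + 0.1), which understates the differences of low genes. Genes higher in Aki numbered 258 (1.31%) and genes higher in BF 139 (0.708%). The 4 libraries of one group all lay above the 4 of the other in 252 of the 258 and in 131 of the 139, while over all tested genes this was so for 8.65% (all Aki above all BF) and 9.14% (all BF above all Aki). Without the threshold on the fold change, 956 genes (4.87%) were higher in Aki and 1046 (5.33%) in BF, so the excess of genes higher in Aki was not seen without that threshold. A log2 fold change of 3 or more in size was reached by 47 genes higher in Aki and by 5 higher in BF. Without BF_R1, 233 genes were called higher in Aki and 154 in BF, and without both libraries that the study left out 243 and 184. The middle of the distribution over all tested genes lay at a log2 fold change of 0.02.

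**Figure D1:**
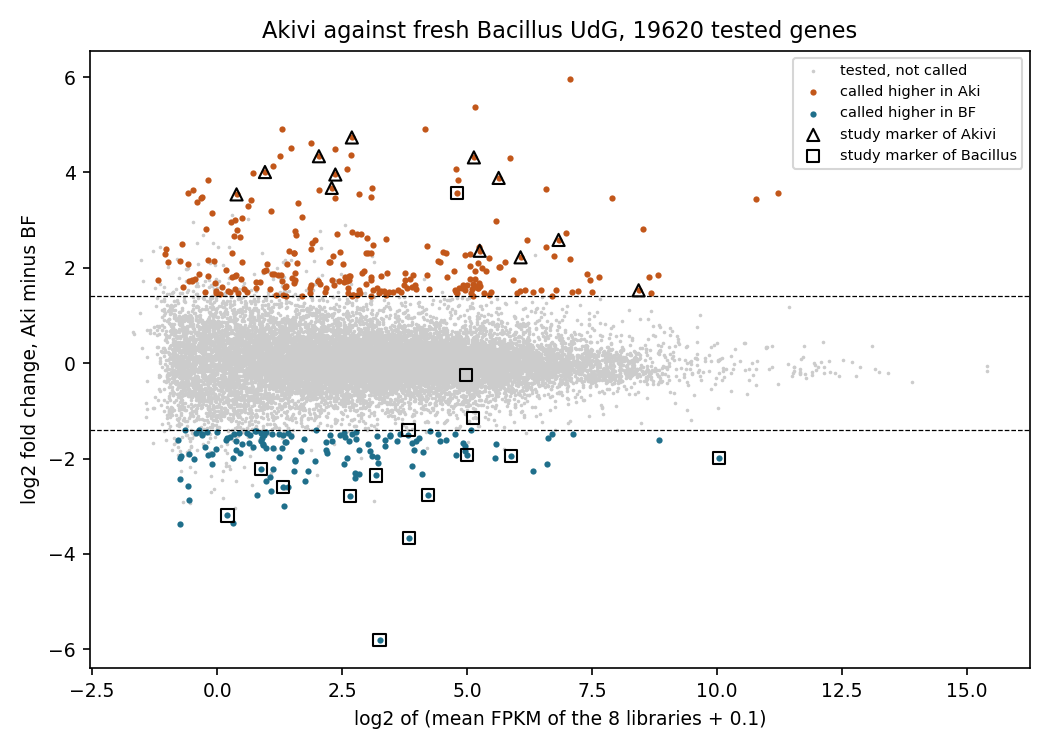
Each point is a tested gene, with its mean level over the 8 libraries on the x axis (log2 of FPKM + 0.1) and its log2 fold change, Aki minus BF, on the y axis; dashed lines mark 1.4 in both directions. The 258 genes called higher in Aki reach larger differences than the 139 called higher in BF, and the triangles (Akivi markers) all lie above the upper line.

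Among the genes described by the study, 37 were called, 24 higher in Aki and 13 higher in BF. The study had picked 12 markers of Akivi and 15 markers of Bacillus from these same samples by their difference from NTC. It aimed at genes altered exclusively by each treatment, and took the Bacillus markers from genes shared by BL and BF. The direction of these lists, and their separation of Aki from BF, is therefore not independent evidence. All 12 Akivi markers were called higher in Aki, with a median log2 fold change of 3.78. Of the 15 Bacillus markers, 11 were called higher in BF and 1 higher in Aki, and the median of the list was -2.22.

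The largest difference among the Akivi markers was that of VIT_06s0004g03350, Lateral organ boundaries protein 1, from a plant family of transcription factors named for its expression at organ borders. It stood at 12.02, 12.3, 10.5 and 14.5 FPKM in Aki_R1 to Aki_R4, and at 0.238, 0.882, 0.144 and 0.470 FPKM in BF_R1 to BF_R4. The lowest Aki library was thus far above the highest BF library. The log2 fold change was 4.73 ± 0.39 (SE, n = 4 per group; limma adjusted p = 9.4e-05). In NTC leaves the gene lay between 0.746 and 2.48 FPKM, above the BF mean of 0.434 FPKM and below every Aki library.

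The ethylene-responsive transcription factor ERF114 (VIT_17s0000g00200), from the AP2/ERF family that acts in ethylene and stress responses, stood at 7.90, 9.26, 7.54 and 5.88 FPKM in the Aki libraries. In the BF libraries it was at 0.180, 0.0556, 0.802 and 0.416 FPKM, a spread wide for its level but without overlap. Its log2 fold change was 4.34 ± 0.48 (limma adjusted p = 0.00049). Gibberellin 2-oxidase (VIT_05s0077g00520), an enzyme that inactivates the growth hormone gibberellin, stood at 3.87, 4.94, 2.58 and 2.75 FPKM in Aki and at 0.0616, 0.400, 0.0748 and 0.0609 FPKM in BF, where a single library, BF_R2, lay above the others. The log2 fold change was 4.01 ± 0.44. The BF values rest on 10 fragments over the 4 libraries.

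Both peroxidases among the markers, enzymes that use hydrogen peroxide and act in cell wall stiffening and defence, were higher in Aki. VIT_12s0055g01010 stood at 76.4, 69.9, 57.5 and 63.6 FPKM in Aki and at 2.11, 4.52, 3.88 and 2.98 FPKM in BF, with a log2 fold change of 4.32 ± 0.21 (limma adjusted p = 6.3e-06). The ratio of the mean FPKM was 19.8. The cationic peroxidase VIT_08s0058g00970 was lower throughout, with 7.38 to 12.1 FPKM in Aki against 0.506 to 0.820 FPKM in BF, and its log2 fold change was 3.68 ± 0.25. Both stood in NTC leaves above the BF mean and below every Aki library.

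Another Akivi marker, VIT_04s0023g02240, encodes the methyltransferase that turns salicylic acid into volatile methyl salicylate, and it stood at 60.0, 124, 95.3 and 91.7 FPKM in Aki and at 5.77, 7.28, 9.39 and 3.22 FPKM in BF. Its lowest Aki library exceeded its highest BF library by a wide margin, and the log2 fold change was 3.89 ± 0.31 (limma adjusted p = 8.5e-05). The gene described as 1,8-cineole synthase (VIT_00s0372g00040), which forms a monoterpene in the plastid, stood at 7.75 to 13.8 FPKM in Aki and at 0.240 to 0.807 FPKM in BF. For the GDSL lipase VIT_19s0090g00660 the BF libraries were unusually close to each other, at 12.4, 11.9, 12.2 and 12.3 FPKM, against 50.4, 81.6, 64.3 and 59.4 FPKM in Aki. GDSL lipases are hydrolases with roles in surface lipids and defence in other plants.

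The receptor protein kinase RK20-1 (VIT_12s0059g02600) was close to the limit of detection outside Aki. It stood at 2.40, 2.03, 3.20 and 1.598 FPKM in Aki and at 0.213, 0.0493, 0.129 and 0.0526 FPKM in BF. Only 8 fragments were found in the 4 BF libraries together, against 184 in Aki, which gave a ratio of 21.5 with an exact 95% counting interval from 10.7 to 50.5. This interval covers counting error only. The plastocyanin domain protein VIT_12s0034g01140, of a class of copper-binding proteins, had a log2 fold change of 2.22 ± 0.19.

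Pathogenesis-related protein 1 (VIT_03s0088g00810), a secreted protein used as a marker of salicylic acid responses, was abundant in both groups. It stood at 394, 629, 668 and 378 FPKM in Aki and at 189, 146, 188 and 173 FPKM in BF, with a log2 fold change of 1.53 ± 0.19 (limma adjusted p = 0.0011). The groups did not overlap, but this was the smallest difference among the 12 Akivi markers, and it fell to 1.39, under the threshold, when Aki_R3 was left out. The pore-forming toxin-like protein Hfr-2 (VIT_07s0005g06090), whose namesake in wheat responds to Hessian fly larvae, stood at 177, 239.6, 216 and 150.3 FPKM in Aki and at 37.0, 30.1, 31.1 and 30.2 FPKM in BF. Its log2 fold change of 2.59 ± 0.15 was large against its spread.

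On the Bacillus side, the largest difference belonged to VIT_16s0022g00860, described as an invertase/pectin methylesterase inhibitor, a class of small proteins that restrain enzymes of sugar and cell wall metabolism. It stood at 18.8, 21.8, 23.0 and 10.4 FPKM in BF_R1 to BF_R4, and at 0.0843, 0.106, 1.01 and 0.148 FPKM in the Aki libraries. Aki_R3 was the highest Aki library and still lay far below every BF library. The log2 fold change was -5.80 ± 0.54 (limma adjusted p = 0.00018), and the ratio of the mean FPKM was 55.0. NTC leaves lay between 0.0729 and 0.853 FPKM, in the range of Aki, and BL leaves between 8.71 and 18.9 FPKM.

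The constans-like gene with a CCT motif (VIT_06s0004g07210), a class of nuclear proteins that act in flowering time and light responses in Arabidopsis, stood at 29.2, 27.5, 36.2 and 13.2 FPKM in BF and at 0.778, 2.94, 2.04 and 2.514 FPKM in Aki. Its log2 fold change was -3.67 ± 0.41. Polygalacturonase inhibiting protein 1 (VIT_13s0064g01370), which blocks fungal enzymes that degrade pectin, stood at 2.64, 1.36, 1.78 and 2.10 FPKM in BF and at 0.144, 0.181, 0.245 and 0 FPKM in Aki. Its Aki values rest on 8 fragments against 105 in BF, a ratio of 14.1 with an exact 95% counting interval from 6.87 to 33.4. The fasciclin arabinogalactan protein FLA21 (VIT_01s0011g01980), a cell surface glycoprotein, stood at 9.37 to 20.5 FPKM in BF and at 1.72 to 3.797 FPKM in Aki, with a log2 fold change of -2.35 ± 0.30.

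Hormone and stress genes were among the other Bacillus markers. GH3.8 (VIT_03s0091g00310), which conjugates the auxin indole-3-acetic acid to amino acids, stood at 1.74, 3.67, 3.58 and 2.33 FPKM in BF and at 0.409, 0.171, 1.395 and 0.537 FPKM in Aki. The highest Aki library, Aki_R3, came near the lowest BF library, and of the 11 markers called higher in BF this gene had the largest adjusted p (limma adjusted p = 0.018), with a log2 fold change of -2.22 ± 0.49. It was not called under 4 of the 21 alternatives. Without BF_R2 or BF_R3 the log2 fold change was -2.08 and -2.09, with limma adjusted p of 0.060 and 0.062. With a pseudocount of 1 FPKM the log2 fold change was -1.25, and the fourth loss was under the threshold of 0.01 for the adjusted p. The cytokinin-repressed protein CR9 (VIT_14s0068g01160) had a log2 fold change of -2.78 ± 0.41, with 6.37 to 15.3 FPKM in BF and 0.651 to 2.99 FPKM in Aki. The dehydration-induced gene ERD15 (VIT_13s0067g02130) stood at 67.6 to 120.3 FPKM in BF and 18.5 to 31.3 FPKM in Aki.

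The most abundant described gene that differed was the chloroplast thiazole biosynthetic enzyme (VIT_10s0116g00530), which makes the thiazole part of vitamin B1. It stood at 1972, 1662, 1758 and 1318 FPKM in BF and at 362, 366, 457 and 518 FPKM in Aki. Every BF library was thus more than 2 times as high as every Aki library, and the log2 fold change was -1.98 ± 0.15 (limma adjusted p = 7.6e-05). The dynein light chain gene VIT_09s0002g04280, encoding a small motor-associated protein, had a log2 fold change of -1.92 ± 0.26. Markers without a known function, VIT_01s0026g02740 and VIT_16s0100g00740, had log2 fold changes of -2.76 ± 0.28 and -2.60 ± 0.39.

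The other 3 Bacillus markers were not called. Polyphenol oxidase (VIT_00s0480g00060), which oxidises phenols, passed the adjusted p (limma adjusted p = 0.0025) and had non-overlapping groups, 14.7 to 25.6 FPKM in BF and 5.86 to 10.0 FPKM in Aki, but its log2 fold change of -1.39 fell just short of the threshold. NAC domain containing protein 2 (VIT_07s0031g02610), a stress-related transcription factor, overlapped between groups, with 26.7 to 87.9 FPKM in BF and 9.98 to 33.9 FPKM in Aki. Ferritin (VIT_08s0058g00430), an iron store of the plastid, had a log2 fold change of -0.24 ± 0.38, and its 2 described relatives had -0.29 and -0.49.

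The 5′-adenylylsulfate reductase gene APR1 (VIT_00s1490g00010), a key enzyme of sulfate assimilation, was the Bacillus marker that stood higher in Aki. It stood at 50.5, 58.9, 54.7 and 41.2 FPKM in the Aki libraries and at 4.11, 4.49, 3.97 and 4.17 FPKM in the BF libraries. The BF libraries all lay between 3.97 and 4.49 FPKM, far below Aki, and the log2 fold change was 3.57 ± 0.13 (limma adjusted p = 1.5e-06). NTC leaves lay between 36.7 and 67.8 FPKM, around the Aki values, and BL leaves between 5.78 and 8.56 FPKM.

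**Figure D2:**
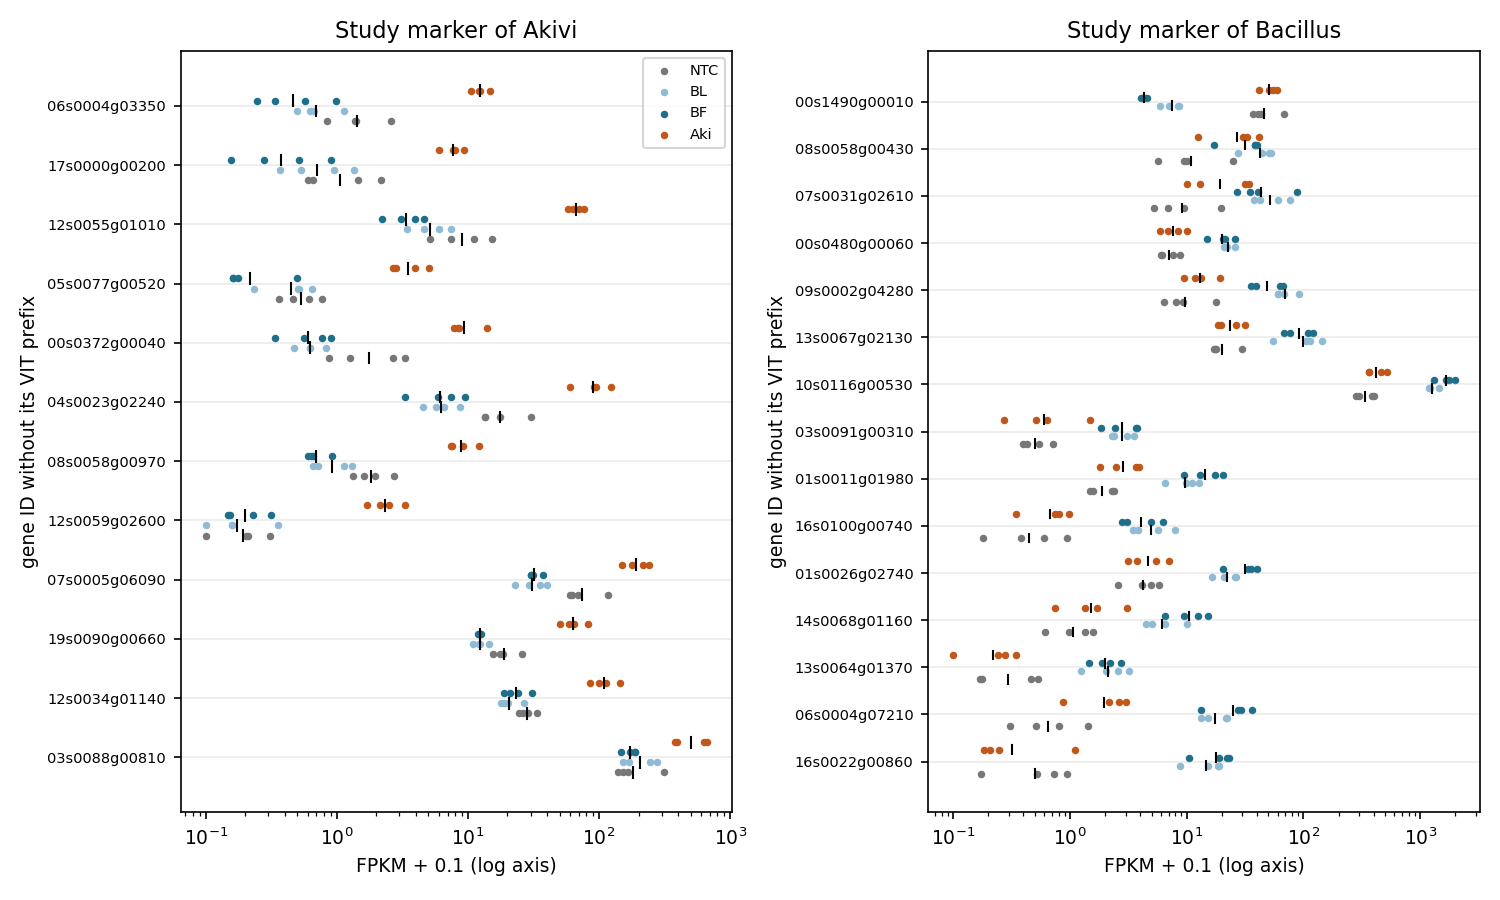
FPKM + 0.1 on a log axis (x) of each study marker (y, gene identifiers) in each library, with 4 points per group for Aki, BF, BL and NTC and a black bar at the geometric mean. Aki points lie apart from all other groups for the 12 Akivi markers, while BF and BL points lie together, apart from Aki and NTC, for most Bacillus markers.

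The levels of the reference groups beside the contrast are given as a description without a test. For the 12 Akivi markers every Aki library lay above every NTC library, as in 3.51% of all tested genes, and for 5 of them every BF library lay below every NTC library, against 7.65% of all tested genes. For 13 of the 15 Bacillus markers every BF library lay above every NTC library, as in 9.96% of all tested genes, and for APR1 every BF library lay below. The markers had been chosen by their difference from NTC, so nothing is read from these counts. The place of NTC over all called genes, which include most of the markers, is given for each direction. For the 139 genes higher in BF, the mean log2 level of NTC was nearer Aki than BF in 125. For the 258 genes higher in Aki it was nearer Aki in 131 and nearer BF in 127. On a scale where the BF mean is 0 and the Aki mean is 1, the median position of NTC was 0.92 for the genes higher in BF and 0.51, with quartiles of 0.31 and 0.95, for the genes higher in Aki. In 39 of the 258, all NTC libraries lay above all BF and below all Aki libraries. In 3 of the 139 all NTC libraries lay between those of the 2 groups in the opposite order. The share of all tested genes was not counted for either order, nor for the nearness of NTC. The called genes were also selected by the Aki and BF levels that define the scale. Nothing is therefore read from these counts and positions. BL leaves were nearer BF than Aki in 250 of the 258 and in 123 of the 139 genes. This nearness was not counted over all tested genes either. The Bacillus markers among the called genes had been taken from genes shared by BL and BF. Nothing is read from the BL counts.

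**Figure D3:**
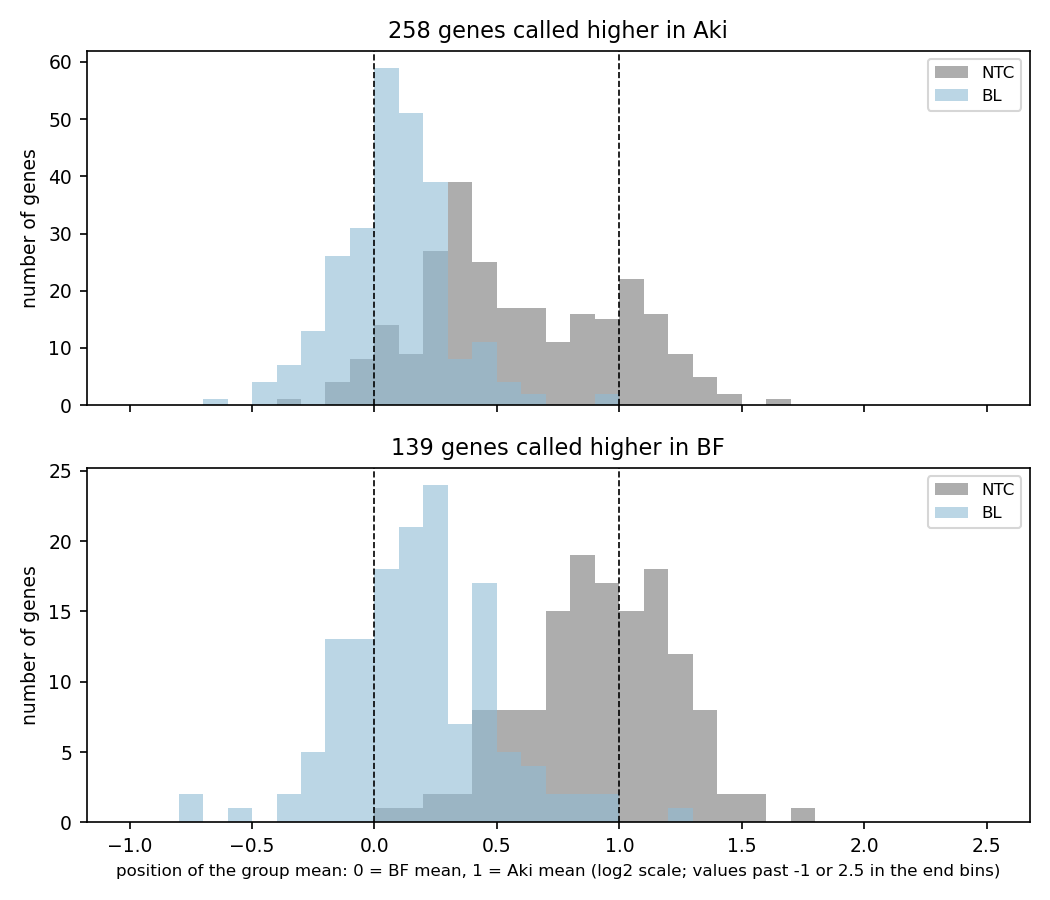
Histograms of the position of the NTC (grey) and BL (blue) mean between the BF mean (0) and the Aki mean (1) on the log2 scale (x axis), as numbers of genes (y axis), for the 258 genes called higher in Aki and the 139 called higher in BF. NTC gathers around the Aki end in the lower panel and spreads over the whole range in the upper, and BL lies near the BF end in both.

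Genes that the study listed as raised defence genes after any of its treatments included 34 that were tested, of which 5 were called higher in Aki and 2 higher in BF, against 1.31% and 0.708% of all tested genes. Their median log2 fold change was -0.58, and 27 of the 34 lay below 0. The 3 trehalose enzymes, which make a stress sugar, lay between -0.93 and -0.08, and none was called by limma or voom, with 2 of 3 at an unadjusted p under 0.05. Of all 19620 tested genes, 4758 had an unadjusted p under 0.05, and those higher in Aki made up 11.4% and those higher in BF 12.8% of all tested genes. Of the 102 described genes, 7 stayed under the filter on low values and were not tested. The list was chosen on these samples against NTC and is no independent evidence of a direction. Systemic acquired resistance (SAR) is the salicylic acid response that spreads from a treated leaf. Of the 3 tested genes described as NIM1-interacting or as DIR1, 2 were called higher in Aki, against 1.31% of all tested genes. DIR1 was not called. The lipid transfer protein gene VIT_08s0007g01370, also listed by the study under SAR, was not tested, with a mean of 0.397 FPKM in Aki and 0.497 FPKM in BF. VIT_07s0005g02070, an orthologue of the NIM1-interacting protein NIMIN-1, stood at 32.2, 71.0, 57.5 and 62.6 FPKM in Aki and at 21.4, 9.37, 20.6 and 9.26 FPKM in BF, with a log2 fold change of 1.93 ± 0.34 (limma adjusted p = 0.0058). The NIM1-interacting gene VIT_01s0011g03430 stood at 36.7, 73.2, 62.1 and 78.3 FPKM in Aki and at 15.4, 13.6, 24.6 and 9.85 FPKM in BF. In both genes Aki_R1 was the lowest Aki library and did not reach down to the BF range. In Arabidopsis, NIMIN proteins bind NPR1 and modulate PR-1. The neighbouring identifier VIT_01s0011g03440, described as a DNA mismatch repair protein, was also listed by the study under regulation of SAR. It was called higher in Aki, with a log2 fold change of 1.80 ± 0.20. DIR1 (VIT_00s0333g00050), a lipid transfer protein that carries the SAR signal in Arabidopsis, passed the adjusted p (limma adjusted p = 0.0073) but had a log2 fold change of 0.89, with 248 to 424 FPKM in Aki and 164 to 212 FPKM in BF.

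The PR-10 gene VIT_05s0077g01600, of a family of small intracellular proteins induced by pathogens, stood at 2.81, 5.99, 8.33 and 3.20 FPKM in Aki and at 0.747, 0.346, 1.21 and 0.492 FPKM in BF. Its log2 fold change was 2.68 ± 0.43, whereas its relative VIT_05s0077g01570 overlapped between the groups, at -0.31 ± 0.35. The phytosulfokine gene VIT_18s0001g08760, the precursor of a sulfated growth and defence peptide, stood at 57.3, 141, 112 and 85.5 FPKM in Aki and at 27.6, 34.7, 42.9 and 28.3 FPKM in BF. It had a log2 fold change of 1.51 ± 0.25, which fell to 1.32 without Aki_R2 and was then not called. Its described relative PSK1 (VIT_08s0007g03870) overlapped between the groups and was not called, at 0.35 ± 0.30. The C2H2 zinc finger gene VIT_13s0019g00480, listed by the study under the response to chitin, had 3.797 to 6.73 FPKM in Aki and 1.38 to 1.98 FPKM in BF, with a log2 fold change of 1.57 ± 0.23.

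Higher in BF from the same list were VIT_13s0067g01940, an abscisic acid receptor of the PYL family, and VIT_11s0052g01280, a xyloglucan endotransglucosylase/hydrolase, which cuts and rejoins wall xyloglucan. The receptor stood at 17.8, 13.7, 10.7 and 11.6 FPKM in BF and at 6.17, 4.73, 4.27 and 3.37 FPKM in Aki, with a log2 fold change of -1.52 ± 0.22. It was not called without Aki_R4 (-1.38) or without BF_R1 (-1.38). The hydrolase was low, with 70 fragments in BF and 15 in Aki, a ratio of 5.00 with an exact 95% counting interval from 2.83 to 9.40, and its 2 described relatives had log2 fold changes of -0.41 and -0.29. The 4 heat shock genes of the list all had log2 fold changes below 0, between -1.31 and -0.64. None was called by limma or by voom on rebuilt fragments. All 4 had an unadjusted p under 0.05 and 2 passed the adjusted p, against 12.8% and 5.33% of all tested genes on the BF side. The chloroplast small heat shock gene HSP26.5 (VIT_00s0992g00020), whose product protects other proteins from unfolding, had the tightest groups, at 57.5, 56.6, 50.1 and 49.2 FPKM in BF and 17.9, 21.1, 24.0 and 23.0 FPKM in Aki (limma adjusted p = 0.00014, log2 fold change -1.31 ± 0.12).

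Genes that the study listed as lowered after any of its treatments had log2 fold changes above 0 in 31 of the 35 tested. Of these 35, 6 were called higher in Aki and 0 higher in BF by limma, as by voom on rebuilt fragments, against 1.31% and 0.708% of all tested genes, with 3 genes higher in BF at an unadjusted p under 0.05. With the adjusted p alone they were 13 and 0, against 4.87% and 5.33%, and the median log2 fold change was 0.89. This list too was chosen on these samples against NTC. Light and developmental regulators were among the called genes of this list. Light and flowering-time genes on the study's other lists went the other way. The CCT gene was called higher in BF (-3.67), and salt tolerance homolog2 (VIT_03s0038g00340) was not called (-0.27 ± 0.27). HY5 (VIT_04s0008g05210), a bZIP factor that promotes light responses in Arabidopsis, stood at 35.5, 83.5, 48.4 and 66.1 FPKM in Aki and at 16.5, 20.4, 20.8 and 12.4 FPKM in BF, with a log2 fold change of 1.69 ± 0.26 (limma adjusted p = 0.0029). The other gene described as HY5, VIT_05s0020g01090, had non-overlapping groups and a log2 fold change of 1.08 ± 0.18. Constans 2 (VIT_14s0083g00640) stood at 53.5, 54.3, 51.5 and 42.1 FPKM in Aki and at 17.5, 17.1, 19.5 and 21.4 FPKM in BF. Its log2 fold change of 1.41 ± 0.12 was precise but close to the threshold, and it was not called under 9 of the 21 alternatives, with values from 1.34 to 1.49. NTC leaves lay between 61.0 and 73.2 FPKM, above Aki and BF.

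The homeodomain leucine zipper genes HB-1 (VIT_01s0026g01550) and HB-7 (VIT_15s0048g02870), transcription factors of development and stress responses, had log2 fold changes of 1.83 ± 0.31 and 1.75 ± 0.23. HB-1 stood at 6.52, 13.3, 13.1 and 6.36 FPKM in Aki and at 2.67, 1.72, 2.45 and 3.55 FPKM in BF, and HB-7 had 9.06 to 16.0 FPKM in Aki and 2.80 to 4.77 FPKM in BF. The largest difference of the list was that of VIT_13s0067g02560, of unknown function, at 561, 906, 493 and 623 FPKM in Aki and 115, 109, 81.3 and 62.2 FPKM in BF. Its log2 fold change was 2.81 ± 0.23 (limma adjusted p = 8.3e-05), and NTC leaves lay between 549.9 and 931 FPKM, in the range of Aki.

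The cyclins of this list, regulators of the cell cycle, overlapped between the groups in all 9 tested members. Most tested genes overlapped too, as only 8.65% had all Aki above all BF and 9.14% all BF above all Aki. None of the 9 was called by limma or by voom on rebuilt fragments, but limma called only 1.31% and 0.708% of all tested genes. An unadjusted p under 0.05 was found in 5 of 9, all higher in Aki, against 11.4% of all tested genes on that side. The log2 fold change was above 0 in 8 of 9, and the median was 0.66. The NTC mean lay above both the Aki and the BF mean in every tested cyclin except cyclin A1. That gene had means of 4.28 FPKM in NTC, 4.65 FPKM in Aki and 1.81 FPKM in BF. The list had been chosen as lowered against NTC. Aki_R1 was the highest Aki library in all 9 cyclins and Aki_R3 the lowest in all 9, as in cyclin A1 (VIT_18s0001g02060) at 7.73, 3.91, 2.17 and 4.78 FPKM. In BF the order was BF_R4 highest in 7 of the 9 and BF_R3 lowest in 7 of the 9. Cyclin A1 in BF stood at 1.35, 1.72, 1.22 and 2.94 FPKM, and its groups overlapped (log2 fold change 1.26 ± 0.39, limma adjusted p = 0.072). The 6 histones, the proteins that package DNA, all had log2 fold changes above 0, from 0.51 to 1.39. None was called by limma or voom. An unadjusted p under 0.05 was found in 6 of 6 and 4 passed the adjusted p, against 11.4% and 4.87% of all tested genes on the Aki side. The histone H4 gene VIT_06s0004g04370 stood at 220.5, 174, 123 and 141 FPKM in Aki and at 84.8, 68.6, 70.6 and 105 FPKM in BF, without overlap, at a log2 fold change of 0.99 ± 0.19. In bulk leaf tissue, fewer dividing cells and less RNA per cell cannot be told apart.

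**Figure D4:**
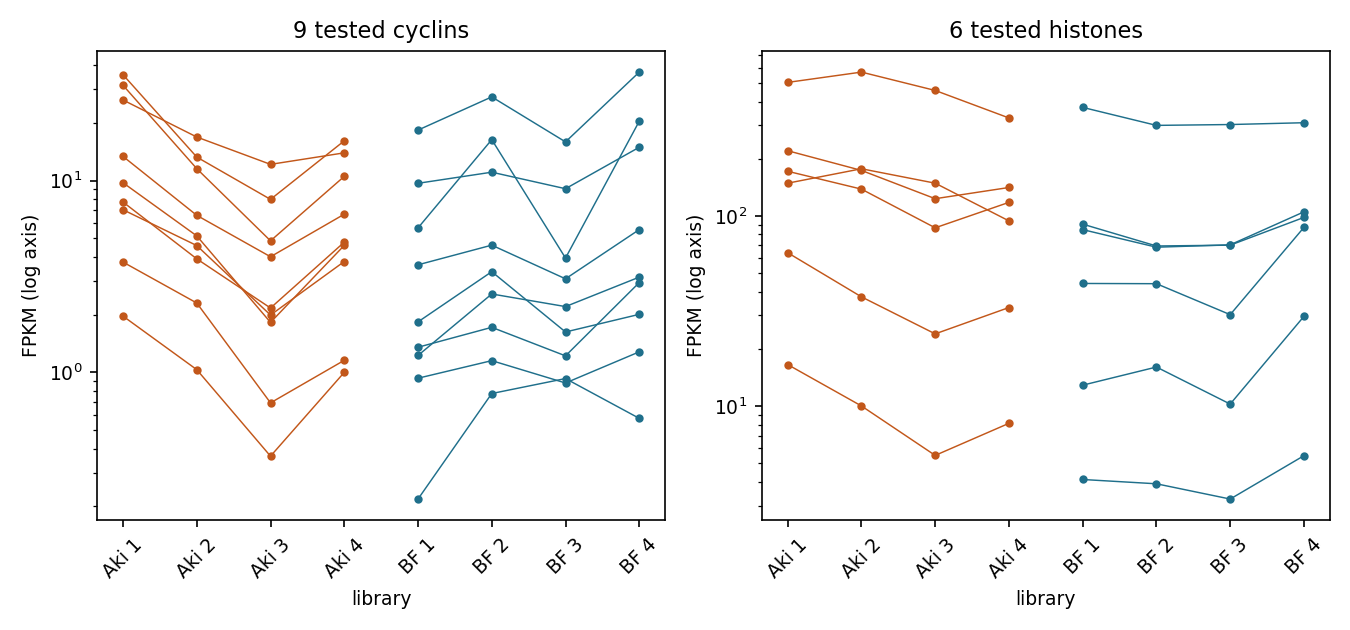
FPKM on a log axis (y) of the 9 tested cyclins (left) and 6 tested histones (right) in each Aki and BF library (x), with a line joining the libraries of a group for each gene. The cyclin lines move together within each group, with Aki_R1 above Aki_R3 in all 9, and the groups overlap.

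Among the 258 genes higher in Aki, Aki_R2 was the highest Aki library in 119 and the lowest in 10. Among the 139 genes higher in BF, it was the lowest Aki library in 52, against 43 for Aki_R1 and 22 each for Aki_R3 and Aki_R4. Library orders were not counted over all tested genes, so no trait of a library is read from the counts given here. For the 11 Bacillus markers called higher in BF, BF_R4 was the lowest BF library in 7 and Aki_R3 the highest Aki library in 7. BF_R4 was also the lowest BF library in 47 of the 139 genes higher in BF, and BF_R1 in 37.

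The largest difference of all tested genes lay in an undescribed stretch of neighbours. The identifiers place VIT_05s0049g00740 on chromosome 5, and it stood at 268, 299, 222 and 253 FPKM in Aki and at 9.57, 2.36, 5.81 and 2.01 FPKM in BF. The log2 fold change was 5.96 ± 0.42 (limma adjusted p = 4.8e-05), and the ratio of the mean FPKM was 52.8. NTC leaves lay between 19.3 and 48.3 FPKM, above every BF library and below every Aki library. Its neighbour VIT_05s0049g00690 stood at 54.1, 80.0, 62.6 and 79.8 FPKM in Aki and at 5.68, 0.642, 1.18 and 1.23 FPKM in BF, with BF_R1 above the other BF libraries. These genes belonged to a run of 9 tested genes in the order of the identifiers that were all called higher in Aki, with log2 fold changes from 2.64 to 5.96. In a window of 21 tested genes around it, 11 were called, and the genes at both ends were not. In VIT_05s0049g00750, VIT_05s0049g00780 and VIT_05s0049g00800 of the run, and VIT_05s0049g00840 of the window, BF means were 0.0735, 0, 0.0158 and 0.0344 FPKM. These genes passed the filter through their Aki levels only, and the added 0.1 FPKM weighs on their log2 fold changes. Nothing is therefore read from their place among the called genes. At 1 gene of the run no fragment was found in any BF library against 56 in Aki, which puts Aki at least 17.4-fold higher (against a floor of 3 fragments over the BF group). In 7 of the 9 genes all NTC libraries lay between those of BF and Aki. The share of all tested genes with this order was not counted, so nothing is read from the 7 of 9. In all 9 every BL library lay below every Aki library, as in 11.2% of all tested genes.

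**Figure D5:**
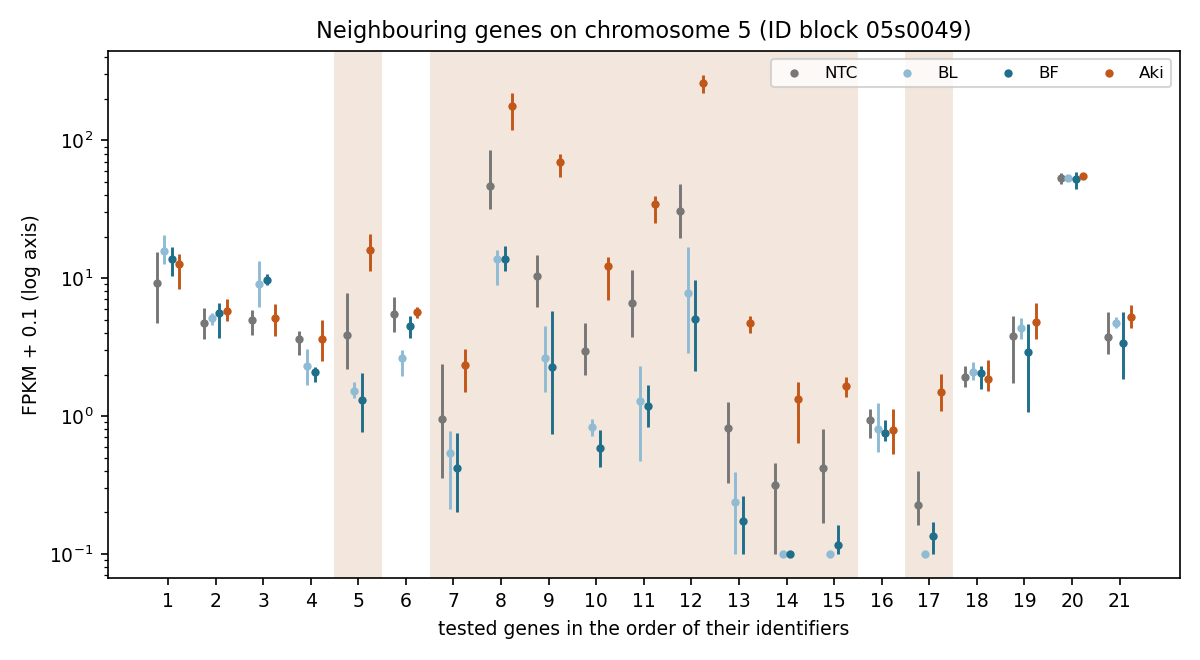
FPKM + 0.1 on a log axis (y) of 21 tested genes of the identifier block 05s0049 in identifier order (x), with the mean (point) and the range of 4 libraries (line) for each group. Shading marks the 11 genes called higher in Aki, where the Aki mean lies above those of BF, BL and NTC, and most of the other genes overlap between groups.

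Runs of called neighbours were found elsewhere too. In total, 22 runs of 2 or more neighbouring tested genes called in the same direction held 53 genes, 19 runs on the Aki side and 3 on the BF side. More genes were called on the Aki side, and the number of runs in a random order of genes was not counted. Nothing is therefore read from the number of runs or their split. A described gene was part of 11 of the runs. The salicylic acid methyltransferase marker stood in a run of 3, whose log2 fold changes lay between 3.84 and 4.07. PR-1, Hfr-2, the cationic peroxidase, RK20-1, 1,8-cineole synthase and the plastocyanin gene each had a called neighbour on the Aki side, and FLA21, the CCT gene and the xyloglucan hydrolase on the BF side. The fragments were counted from uniquely mapping reads, so near-identical copies in such runs are uncertain, and reads of overlapping neighbours cannot be told apart where the counting did not use strand. Undescribed genes were ranked among called genes with non-overlapping groups, and with at least 100 fragments and a mean of at least 2 FPKM in the higher group. On the BF side, the largest differences among these were those of VIT_03s0063g00350 and VIT_18s0001g10480. The first stood at 3.86, 5.64, 5.71 and 2.33 FPKM in BF and 0.237, 0.595, 0.454 and 0.518 FPKM in Aki. The second had a log2 fold change of -2.67 ± 0.38. BL leaves reached at most 2.25 and 1.87 FPKM, where the lowest BF libraries stood at 2.33 and 1.80 FPKM.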

How the data were processed

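The authors trimmed paired reads with BBDuk (FastQC 0.10.1 for quality), aligned them to the 12X PN40024 genome with STAR 2.6, counted uniquely mapping fragments with featureCounts 1.6.1 (the strand setting is not given in the sources used here) and deposited FPKM calculated with edgeR. The FPKM followed the library totals with no further factor, and whole fragments were rebuilt within 0.01 for all 25310 genes above 0. The 8 libraries were fitted on log2(FPKM + 0.1) with limma 3.58.1 in R 4.3.3 (trend and robust moderation, no block, Benjamini-Hochberg adjustment across all tested genes). Values are means or single libraries, and errors are SE of 4 against 4. Replicates were separate pools of 5 plants from 1 trial, so p-values measure the spread between such pools. On simulated data, 94 of 100 genes changed by 2 and 100 of 100 changed by 3 on the log2 scale were recovered. There were 0 in the wrong direction and 3 false calls among 19620 genes. The changed genes were drawn only among genes of higher level, and the noise was normal and independent between libraries. Recovery of low genes, and recovery or false calls with a library standing apart as BF_R1 did, were not measured.

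Members, gene lists and tests were chosen with earlier results of these data known. Named were the called genes of the study's tables and, without a description, at most 2 in each direction. Lists by keyword, markers of leaf and other cell types, and promoter motifs were not used here, since 0 identifiers matched the reference gene table. The authors' own fold changes were not used. Counting intervals are exact (95%) and cover counting error only. Alternatives were other pseudocounts, filters, scalings, thresholds and models, a replicate block, rebuilt fragments with voom, and each library left out. Python 3.11.15, pandas 2.3.3, NumPy 2.4.6, SciPy 1.17.1 and matplotlib 3.10.9 were used.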

Additional observations from a re-analysis of the deposited data

Results flagged for a closer look

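In 4 of 92 groups of 4 values examined, 1 library lay far from the other 3, and chance gives about 1 group in 20. Gibberellin 2-oxidase (VIT_05s0077g00520) was at 0.400 FPKM in BF_R2 and at 0.0609 to 0.0748 FPKM in the other BF libraries. The 1,8-cineole synthase gene (VIT_00s0372g00040) was at 13.8 FPKM in Aki_R2 and at 7.75 to 8.38 FPKM in the other Aki libraries. Hfr-2 (VIT_07s0005g06090) was at 37.0 FPKM in BF_R1 and at 30.1 to 31.1 FPKM in the other BF libraries. The invertase/pectin methylesterase inhibitor (VIT_16s0022g00860) was at 1.01 FPKM in Aki_R3 and at 0.0843 to 0.148 FPKM in the other Aki libraries. None of these libraries reached the other group.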

How the results depend on the processing

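The 258 and 139 genes called higher in Aki and in BF became 161 and 60 with a pseudocount of 1 FPKM, 956 and 1046 without the fold threshold, and 201 and 76 at an adjusted p of 0.01. They stayed within 1.5 times under the other alternatives, with 0 genes called in the opposite direction. Leaving out each library gave 207 to 315 and 101 to 158 genes. With a replicate block they were 237 and 112, of which 233 and 109 were the same genes. The replicate numbers name different plants in each group and do not pair them (correlations of deviations between -0.126 and 0.187). Of the listed raised defence genes, 2 were called higher in BF, but 0 with a pseudocount of 1, 5 in the fit of all 16 libraries, 5 without the fold threshold, 1 without Aki_R4 and 4 without BF_R4 (1 to 4 when each library was left out). Of the listed lowered genes, the 6 called higher in Aki became 13 without the fold threshold and 10 without Aki_R3 (6 to 10 over the libraries left out), and 1 was called higher in BF in the libraries the study retained. Of 41 named genes, 33 were called under all 21 alternatives, and none reversed. Depth limits genes such as RK20-1 and PGIP1, with 8 fragments in the lower group.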
